A study of Homo sapiens with 12 samples.

Results

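Cells of H9, a line of human embryonic stem cells in wide use, were compared between replicate sets 1 and 2 and replicate sets 3 and 4 of the same transfection experiment, in libraries that received no antisense oligo against LINE1. A replicate set here means the libraries that carry the same replicate number. The members were the 4 control libraries of sets 1 and 2 and the 4 of sets 3 and 4, 8 of the 12 libraries of the series. They were chosen by their labels alone, with the oligo kept as a block. The cells were kept in RSeT medium, which is meant to hold them in a naive-type state, and received a fluorescein-labelled oligonucleotide at 25 nM by lipofection. ASO-Ctr is an antisense oligo without a specific target, and sO-L1 is the sense oligo to RNA of LINE1, a retrotransposon family. Each replicate set holds 1 library of each. All cells, controls included, also received 0.7 uM Trans-ISRIB, which counters the translational block of the integrated stress response, 5 uM emricasan, a caspase inhibitor, and 10 uM Y-27632, a ROCK inhibitor, for 24 h. Fluorescent cells were sorted at 48 h. The remaining 4 libraries, from cells given the antisense oligo ASO-L1, carry the same replicate numbers and were used only to see whether the set difference appeared there too.

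The labels give no reason for setting numbers 1 and 2 against 3 and 4, and do not say that replicates were separate cultures, so the p-values measure the spread between these samples, which may be technical. All adjusted p-values are from edgeR's quasi-likelihood F-test with Benjamini-Hochberg adjustment over all genes tested, called under 0.05. ASO-Ctr and sO-L1 libraries of the same set moved together, as described below, so p-values over 8 libraries count a set more than once and are too small. A second fit, on the summed counts of each replicate number (1 profile per set, 2 against 2), counts each set once. Contrasts of single sets, and fits that leave out a set, rest on the same linked libraries, so their p-values are too small as well. Levels are CPM, counts per 1000000 reads of the TMM-scaled library, and differences are log2 values with their standard error (SE). Unless another fit is named, SEs and fold intervals are from the fit over 8 libraries. That holds also where a p-value with 1 profile per set stands beside them. They count a set more than once too, and so tend to be too narrow.

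Cells respond to low oxygen or to reduced oxygen sensing through hypoxia-inducible factors (HIF), which bind short DNA elements and raise genes of glucose uptake, glycolysis, mitophagy, angiogenesis and collagen modification. Pluripotent stem cells in the primed state lean on glycolysis, and the naive state is known for more mitochondrial respiration. Growth factors of the medium act through FGF receptors and ERK, whose early targets include EGR1, FOS and MYC. These pathways are textbook background and were not manipulated here.

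Replicate set 1 stood apart from the others, and sets 3 and 4 lay close together. The 8 libraries held 22830894 to 55056032 reads counted in genes. The upper limit for a gene with no read, 3 reads, stood at 0.0545 to 0.131 CPM. That limit holds for counting error alone, as the labels name no molecular identifiers. On the first principal component, with 31.8% of the variance, the libraries of set 1 lay at -31.1 and -25.6, those of set 2 at -5.87 and -7.32, and those of sets 3 and 4 between 16.1 and 18.3. Of all variation in log2 CPM, 28.8% lay between the pairs of sets, 17.0% between sets 1 and 2, 11.4% between sets 3 and 4, 12.8% between the oligos and 30% was left. The difference between the pairs, 1 of 3 contrasts among the 4 sets, was thus 50.3% of the variation among them. The median share of a gene was 41.8%. Deviations of ASO-Ctr and sO-L1 libraries from their oligo's mean correlated at 0.604 to 0.723 within the same replicate number, in 10587 genes, against a median of -0.307 for different numbers. These deviations hold the difference between the pairs as well. Different numbers correlated at 0.457 and 0.560 within sets 3 and 4, and at -0.148 and 0.114 within sets 1 and 2. With oligo and pair in the design, the consensus correlation within a replicate number by limma was 0.276.

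**Figure D1:**
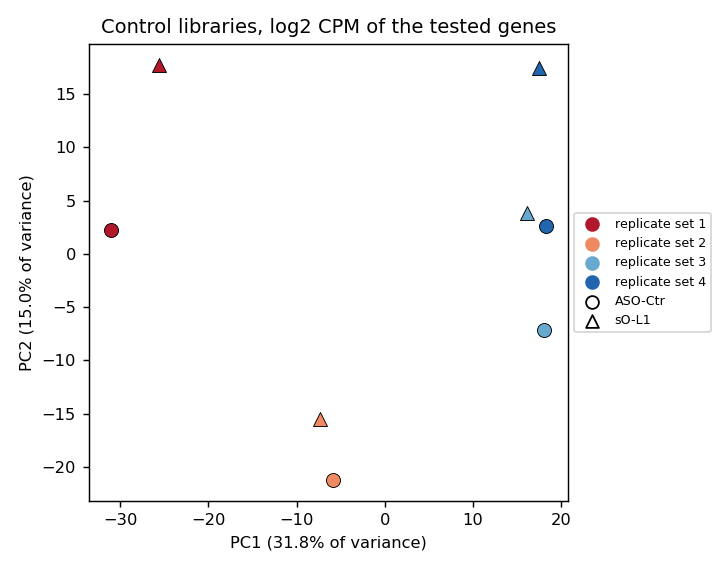
First and second principal components of log2 CPM in the 8 control libraries; circles are ASO-Ctr and triangles sO-L1, coloured by replicate set. The libraries of sets 3 and 4 share a narrow range of PC1 from 16.1 to 18.3, while those of set 1 lie at -31.1 and -25.6.

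In all, 1642 of 17101 genes (9.6%) were called between the pairs of sets, 727 higher in sets 3 and 4 (4.25%) and 915 lower (5.35%). Most differences were small. The median absolute log2 difference was 0.32 in called genes and 0.11 in all genes, and 21 genes were called more than 2-fold higher and 106 more than 2-fold lower. In 2773 genes (16.2%) the 4 libraries of each pair did not overlap, 1440 of the called genes among them. With 1 profile per set, 80 of 18705 genes (0.428%) were called, 34 higher and 46 lower, and 2803 had an unadjusted p under 0.05. Of the genes named here, that fit called BNIP3, NDUFA4L2, PDK1, SLC16A3, STC1, STC2, EGR1, MYC, CER1, CXCR4, FOXA2, ID3, SOX11, VIM, AGRN, COL1A1, HMGCS1 and 19 of the largest rises and falls described below (DACT1, HES1, INSM1, KLHL4, LHX6, SOX21, SOX21-AS1, TNRC18, ZEB2, ATP1B2, BAI2, CREB3L1, GPR176, IDO1, JPH4, PRKCB, RP11-867G2.6, SNAI3 and ZNF107). The other genes named here as called were called over 8 libraries and not in it. Of 34 gene lists 23 had 0 members called in it, among them p53 targets, FGF and ERK feedback, YAP and SRF targets, core pluripotency, naive markers, proliferation, heat shock and interferon response. With the replicate number as a random effect in limma, 847 were called. That fit uses 1 correlation, 0.276, for all genes and still counts 8 libraries. It allows for the pairing only in part. Of the genes named by rule 10 lost their call in that fit, among them NLRP7, IFITM3, TBX6, RPL17 and BAMBI, which are described below. Without set 1, 3420 of 17288 genes (19.8%) were called. Without set 2 the count was 4352, without set 3 168 and without set 4 104. Each of these 4 fits leaves 1 side with a single set, whose libraries it treats as replicates. Leaving out a single library gave 730 to 2211 genes, and 994 without the ASO-Ctr library of set 1, 763 and 778 without those of sets 3 and 4, and 772 and 730 without the sO-L1 libraries of sets 3 and 4. Of 98 genes named here by rule and called, 33 were called in each of these 12 fits, 55 lost their call without set 3 and 62 without set 4.

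Genes rich in GC were lower in sets 3 and 4 and genes poor in GC higher. Across 14419 tested genes with a GC value (84.3%), the Spearman correlation of the difference with transcript GC content was -0.303, with genes that share libraries and are not independent. The median log2 difference fell from 0.06 in the fifth of genes with the least GC to -0.08 in the fifth with the most. In ASO-L1 libraries the same groups of genes had medians of -0.0045 to 0.034. With a correction for GC, added after the data were seen, 1385 genes (8.1%) were called, 1166 of the first 1642 among them. Whether GC content has a part in any gene's difference was not tested further.

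Many targets of HIF were lower in sets 3 and 4. Beside 5.35% of all genes called lower and 4.25% higher, 19 of 35 tested genes in a list of hypoxia targets fell, 2 rose and 14 were not called. These 35 genes had a median log2 difference of -0.32 against -0.01 over all genes. Their summed level was 1029 to 1114 CPM in the libraries of sets 1 and 2 and 791 to 878 CPM in those of sets 3 and 4, so the pairs did not overlap. Some other lists did not overlap either, such as integrated stress response (4951.2 to 5288.5 and 4725.3 to 4843.6 CPM) and core pluripotency (11341 to 11583 and 11038 to 11192 CPM). Those of p53 targets and ribosomal proteins, among others, overlapped. The median of the hypoxia list was -0.33 after the GC correction, with the same number of genes called in each direction. Median GC of the hypoxia list was 51.8% against 50% of all genes. With 1 profile per set, 5 members fell: SLC16A3, NDUFA4L2, STC1, BNIP3 and STC2. Without set 1, 23 fell and 2 rose, whereas 8 fell without set 3 and 5 without set 4. Leaving out the ASO-Ctr library of set 3 or the sO-L1 library of set 4 left 12.

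The largest fall among called genes whose average log2 CPM was 1 or more was that of SLC16A3, the transporter MCT4 that exports lactate from glycolytic cells. ASO-Ctr and sO-L1 libraries had 18.6 and 19.1 CPM in set 1 and 28.1 and 33.6 CPM in set 2. They had 6.57 and 8.18 CPM in set 3 and 3.76 and 5.16 CPM in set 4. Every library of sets 3 and 4 lay below every library of sets 1 and 2, and within each pair the sets also differed, in opposite directions. The level was 4.25-fold higher in sets 1 and 2 (95% interval 3.15 to 5.76, log2 difference -2.09, SE 0.20, adjusted p = 0.000101, and 0.0387 with 1 profile per set). Set 4 was below set 3 by a log2 difference of -0.73 (adjusted p = 0.000428), and set 2 was above set 1 by 0.72 (adjusted p = 3.09e-10).

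STC1, a secreted glycoprotein hormone of calcium and phosphate balance, was even within each pair. Its levels were 24.4 and 25.8 CPM in set 1, 24.3 and 23.3 CPM in set 2, 13.9 and 14.3 CPM in set 3 and 12 and 12.7 CPM in set 4. The libraries of sets 1 and 2 stood 1.85-fold above those of sets 3 and 4 (95% interval 1.66 to 2.05 over 8 libraries). The SE of the log2 difference was 0.072 in that fit and 0.093 with 1 profile per set (adjusted p = 0.0387 in the latter). BNIP3, a mitochondrial protein that marks mitochondria for mitophagy, had 79.0 to 93.9 CPM in sets 1 and 2 and 52.5 to 65.7 CPM in sets 3 and 4, with a log2 difference of -0.59 (SE 0.058). NDUFA4L2, a HIF target of the respiratory chain, was rare, at 1.41 ± 0.79 CPM (SD, n = 4) in sets 1 and 2 and 0.328 ± 0.25 CPM in sets 3 and 4. One library of set 3 had 0.0313 CPM, under its 3-read limit of 0.0931 CPM.

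DDIT4, a stress-induced inhibitor of mTORC1, had another pattern. It stood at 73.3 and 65.1 CPM in set 1, 28.5 and 32.2 CPM in set 2, and 19.4 to 21.6 CPM in the 4 libraries of sets 3 and 4. Set 1 was high alone, and set 2 lay nearer to sets 3 and 4. Its log2 difference between the pairs was -1.29 (SE 0.24), with an adjusted p of 0.00429 over 8 libraries and 0.110 with 1 profile per set, and set 2 differed from set 1 by -1.18 (adjusted p = 1.14e-23). Other members that fell were the oxygen sensor EGLN3 (25.7 ± 2.8 to 16.7 ± 0.33 CPM), the transcriptional repressor BHLHE40 (11.3 ± 1.9 to 7.11 ± 0.59 CPM), the histone demethylase KDM3A (77.7 ± 4.8 to 63.6 ± 4.7 CPM) and the angiogenic factor VEGFA (40.8 ± 1.9 to 32.8 ± 2.3 CPM). In these 4 genes the pairs did not overlap, and none was called with 1 profile per set. The collagen-modifying enzymes P4HA1, P4HA2, PLOD1 and PLOD2 fell as well, by log2 differences of -0.24, -0.37, -0.25 and -0.41.

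ADM, the vasodilator peptide adrenomedullin, and CITED2, a competitor of HIF for its coactivator, rose instead, by log2 differences of 0.39 (SE 0.090) and 0.41 (SE 0.088). CA9, a carbonic anhydrase widely used as a marker of HIF activity, lay at 0.188 to 0.700 CPM in every control library and was not called (log2 difference -0.01, SE 0.36, adjusted p = 0.986). EGLN1, another oxygen sensor, was not called either: set 2 alone was high, at 27.6 and 25.1 CPM, against 13.5 to 18.8 CPM in the other 3 sets.

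Most glycolytic genes were lower in sets 3 and 4, by smaller amounts. Of 25 tested genes 16 fell, 1 rose and 8 were not called, beside 5.35% of all genes called lower and 4.25% higher. The 25 genes had a median log2 difference of -0.17. Their summed level was 13003 to 13752 CPM in sets 1 and 2 and 11603 to 12227 CPM in sets 3 and 4. With 1 profile per set only PDK1 was called. With the GC correction 15 fell, and median GC of the list was 55.5%, above that of all genes. Fitting all 12 libraries together, in place of the 8 control libraries, left 7 called lower. Without set 3 the count was 5 and without set 4 it was 2, and leaving out the ASO-Ctr library of set 3 or the sO-L1 library of set 4 left 10.

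**Figure D2:**
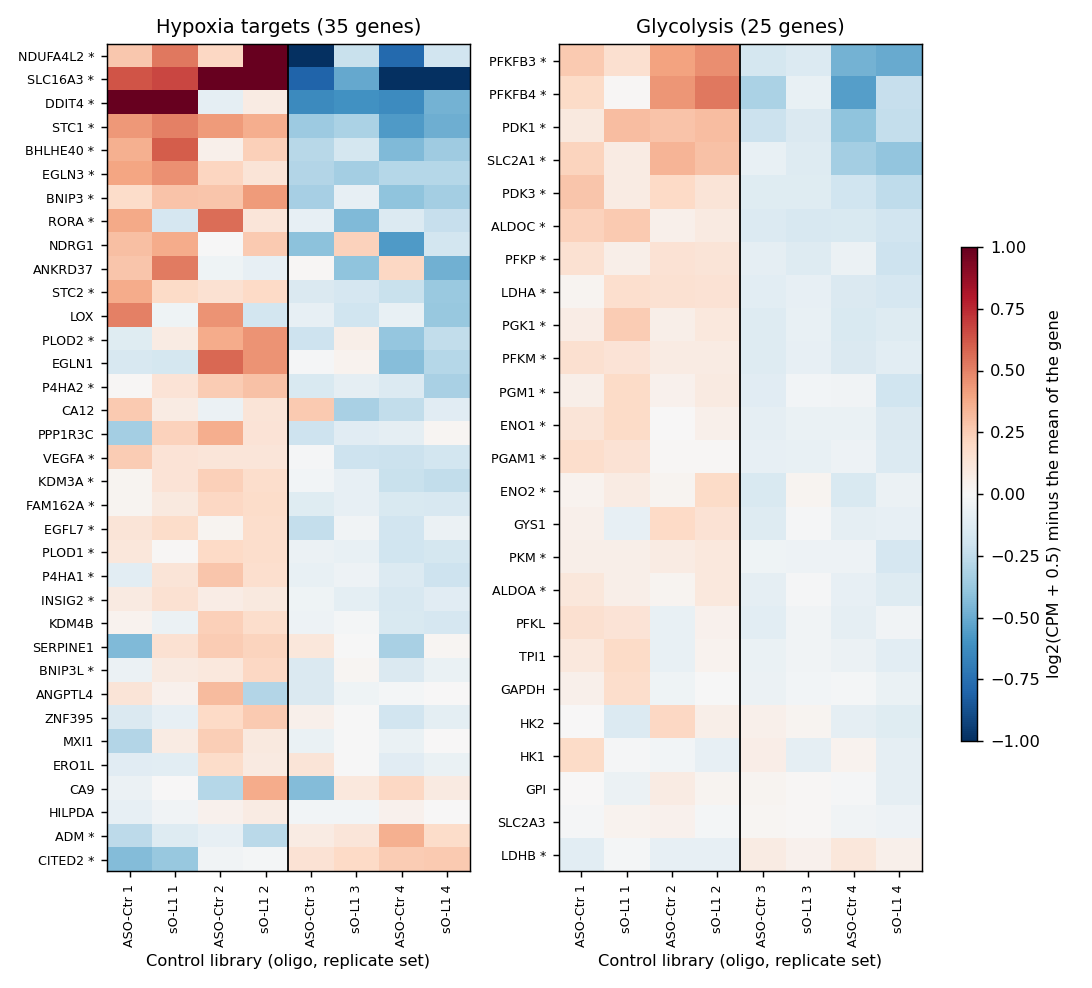
Level of each tested gene of the hypoxia and glycolysis lists in each control library, as log2(CPM + 0.5) minus the mean of the gene over the 8 libraries; the colour scale ends at -1 and 1, a star marks genes called over 8 libraries, and the line divides sets 1 and 2 from sets 3 and 4. Of 35 hypoxia targets 33 and of 25 glycolytic genes 24 have a negative difference, and several rows, such as DDIT4 and EGLN1, are carried by 1 set.

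The 4 largest falls were those of genes at control points of the pathway. PDK1, the kinase that closes entry of pyruvate into mitochondria, stood at 87.3 and 101 CPM in set 1, 99.4 and 101 CPM in set 2, 70.2 and 73.8 CPM in set 3 and 61.7 and 69.2 CPM in set 4. The pairs did not overlap, and the fold was 1.42 in favour of sets 1 and 2 (95% interval 1.31 to 1.53, adjusted p = 0.000139, and 0.0387 with 1 profile per set). SLC2A1, the glucose transporter GLUT1, had 157 to 187 CPM in sets 1 and 2, 140 and 135 CPM in set 3 and 117 and 113 CPM in set 4. PFKFB3, which makes the activator of phosphofructokinase, had 62.6 to 77.1 CPM in sets 1 and 2, 49.4 and 50.8 CPM in set 3 and 40 and 39.2 CPM in set 4. Both therefore also fell from set 3 to set 4, by log2 differences of -0.26 (adjusted p = 0.00160) and -0.34 (adjusted p = 0.00123). Its relative PFKFB4 fell between the pairs by -0.62 (SE 0.11).

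Of the abundant enzymes, LDHA, PGK1, ENO1 and PKM were 1.11- to 1.19-fold higher in sets 1 and 2, while LDHB was lower there. LDHA, which reduces pyruvate to lactate, had 1222 ± 54 CPM (SD, n = 4) in sets 1 and 2 and 1029 ± 27 CPM in sets 3 and 4. PGK1, phosphoglycerate kinase, had 897 ± 56 and 757 ± 16 CPM, ENO1 2217 ± 124 and 1948 ± 51 CPM, and PKM 1538 ± 24 and 1380 ± 57 CPM. LDHB, the lactate dehydrogenase subunit that favours the reverse reaction, was the member that rose, from 1092 ± 30 to 1208 ± 25 CPM. GAPDH, TPI1, GPI, HK1, HK2, PFKL, GYS1 and SLC2A3 were not called.

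Since members of both lists fell, the 250 bases before their start sites were searched for ACGTG, a core form of the HIF response element, on either strand (CACGT on the other). Sequences are those of RefSeq on GRCh38.p14, whereas the counts were made on hg19. The motif stands in 18.7% of 27303 promoters of this length and in 22.8% of those of tested genes. Of 28 hypoxia targets with a sequence 16 hold it (57.1%). Of the 19 that fell 16 have a sequence, and 7 of these hold it (43.8%). Of 24 glycolytic genes with a sequence 9 hold it (37.5%), and of the 16 that fell 6 do (37.5%). A match is a string of letters and not a shown binding site, and many HIF sites lie outside such windows.

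Shown are 3 promoters of genes that fell and that hold the motif, and that of SLC16A3, whose fall is given above and which has no match in this window. Capitals mark the motif on either strand, and CACGTG holds it on both.
BNIP3, chr10:131981924-131982173, minus strand: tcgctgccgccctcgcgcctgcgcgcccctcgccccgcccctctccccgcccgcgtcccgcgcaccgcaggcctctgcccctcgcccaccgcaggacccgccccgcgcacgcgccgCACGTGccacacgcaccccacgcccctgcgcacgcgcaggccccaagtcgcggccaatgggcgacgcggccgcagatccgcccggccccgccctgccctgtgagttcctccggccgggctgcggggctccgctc
LDHA, chr11:18394313-18394562, plus strand: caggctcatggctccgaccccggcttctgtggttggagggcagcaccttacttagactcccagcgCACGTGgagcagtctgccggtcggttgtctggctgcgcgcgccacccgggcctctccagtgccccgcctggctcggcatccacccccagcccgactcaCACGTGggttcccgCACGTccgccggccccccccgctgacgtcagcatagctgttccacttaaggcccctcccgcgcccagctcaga
PGK1, chrX:78103998-78104247, plus strand: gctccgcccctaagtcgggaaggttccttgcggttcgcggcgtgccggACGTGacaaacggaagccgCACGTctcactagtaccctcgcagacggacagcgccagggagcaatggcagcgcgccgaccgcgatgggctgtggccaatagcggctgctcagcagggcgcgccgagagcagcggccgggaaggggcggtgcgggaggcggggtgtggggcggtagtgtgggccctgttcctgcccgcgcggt
SLC16A3, chr17:82228185-82228434, plus strand: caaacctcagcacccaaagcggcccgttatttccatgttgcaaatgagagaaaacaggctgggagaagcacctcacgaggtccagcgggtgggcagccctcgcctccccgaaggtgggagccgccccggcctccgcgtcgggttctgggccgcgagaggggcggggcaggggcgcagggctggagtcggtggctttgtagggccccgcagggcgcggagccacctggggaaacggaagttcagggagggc

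In the window of BNIP3 the motif lies 134 bases before the start. The LDHA window has 5 matches, at 185, 184, 87, 86 and 73 bases, of which 185 with 184 and 87 with 86 are 1 run read on both strands. The PGK1 window has 2, at 202 and 183 bases. LDHA and PGK1 fell by log2 differences of -0.25 and -0.24, and BNIP3 by -0.59.

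Called genes of the integrated stress response and called p53 targets were mostly lower in sets 3 and 4. In the stress list, which holds targets of ATF4, 13 of 34 tested members fell and 1 rose (median log2 difference -0.14), and in the p53 list 8 of 29 fell and 1 rose (median -0.17). Of all genes 5.35% were called lower and 4.25% higher. CHAC1, which degrades glutathione, had 30.2 and 29.1 CPM in set 1, 21.9 and 20.8 CPM in set 2 and 14.5 to 15.8 CPM in sets 3 and 4. SESN2, a stress-induced regulator of mTORC1 on both lists, had 30.9 and 33.3 CPM, 24.3 and 25.2 CPM and 18.4 to 21 CPM in the same order. For both genes set 1 was highest and set 2 was intermediate. STC2, a secreted glycoprotein on the hypoxia and stress lists, was the 1 member of the stress and p53 lists called with 1 profile per set (88.3 ± 6.1 to 64.2 ± 4.5 CPM, adjusted p = 0.0394). CDKN1A, the p53-induced cell cycle inhibitor p21, was not called (adjusted p = 0.0695): set 1 had 10.7 and 11.3 CPM and the other 3 sets 4.13 to 5.26 CPM. Without set 2 it was called, at -1.30. In the list of apoptosis genes 5 of 19 fell, the death receptors FAS and TNFRSF10B, BAX, BMF and CASP9, and HRK rose. All cells had received a caspase inhibitor and Trans-ISRIB during the first 24 h.

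Called growth-factor response genes were mostly higher in sets 3 and 4. Of 24 tested immediate early genes 7 rose and 0 fell (median log2 difference 0.15), and of 19 genes of FGF and ERK feedback 7 rose and 1 fell (median 0.15). These counts stand beside 4.25% of all genes called higher and 5.35% lower. EGR1, a zinc finger factor induced by ERK, had 3.29 and 2.56 CPM in set 1, 1.49 and 2.15 CPM in set 2, 6.13 and 6.18 CPM in set 3 and 6.32 and 8.15 CPM in set 4. MYC, which drives growth and ribosome production, had 63.3, 60.4, 73.8 and 70.5 CPM in sets 1 and 2 and 91.5 to 97.2 CPM in sets 3 and 4. In both genes the pairs did not overlap, and both were called with 1 profile per set (adjusted p = 0.0387 and 0.0394), with log2 differences of 1.55 (SE 0.18) and 0.50 (SE 0.056).

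FOS was called over 8 libraries, but set 2 was low (28.5 and 27.6 CPM) while set 1 (46.5 and 39.0 CPM) overlapped sets 3 and 4 (45.3 to 53.7 CPM). The ERK feedback inhibitors SPRY1, SPRY2 and SPRY4 and the FGF antagonist IL17RD rose by log2 differences of 0.41, 0.36, 0.40 and 0.44. The receptor FGFR3 rose (0.41) and FGFR4 fell (-0.26). Without set 1, 12 immediate early genes and 11 feedback genes rose, and with 1 profile per set 2 and 0 did. Of 20 YAP and SRF targets 6 rose and 1 fell, led by AMOTL2, an angiomotin of cell junctions (35.1 ± 8.0 to 58.6 ± 4.3 CPM).

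**Figure D3:**
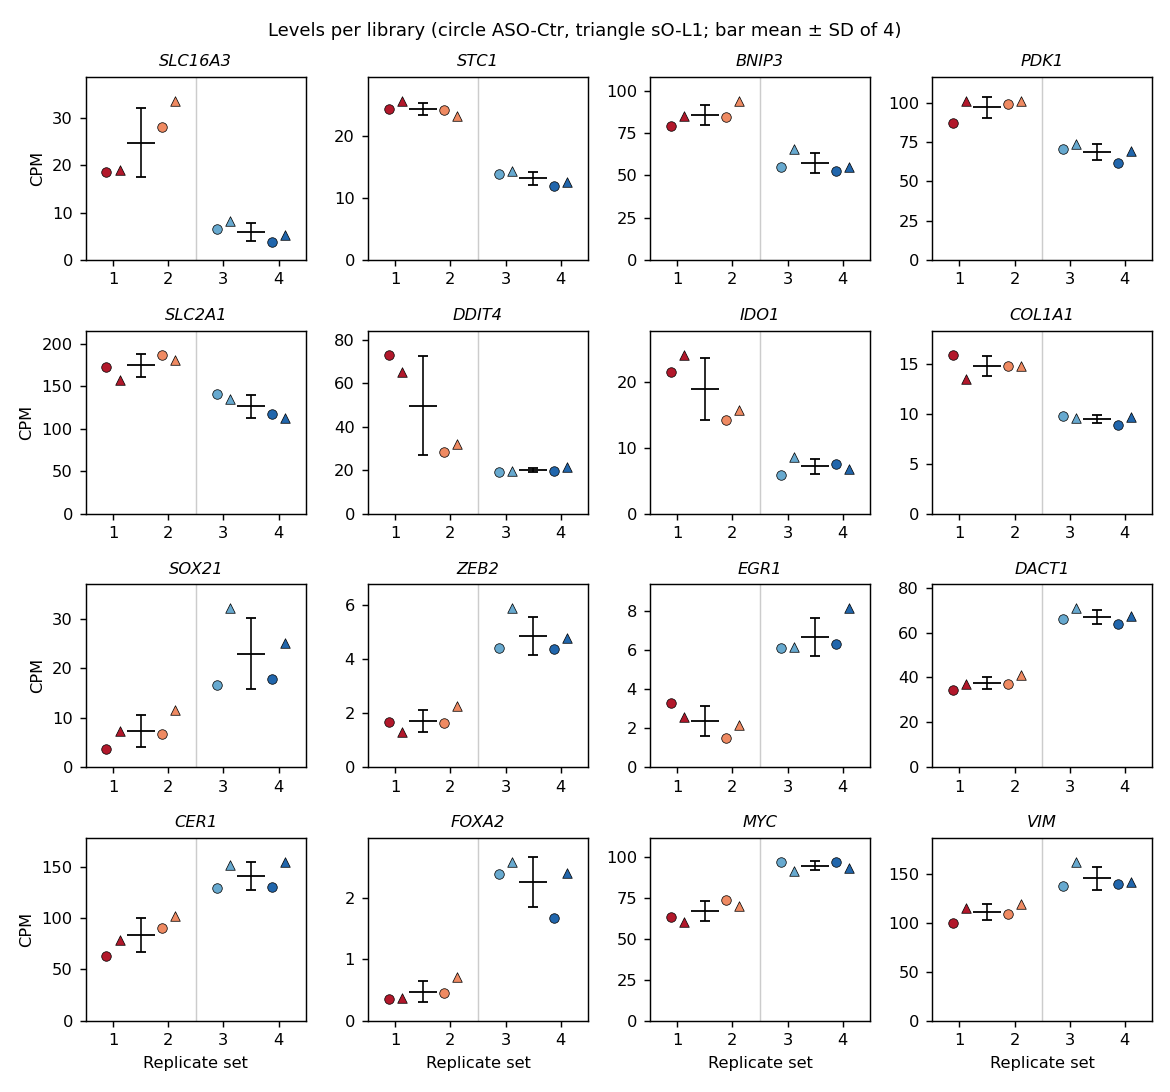
CPM of 16 genes in each control library by replicate set, chosen for display after their values were seen; circles are ASO-Ctr, triangles sO-L1, and bars the mean and SD of the 4 libraries of each pair of sets, with every axis starting at 0. SLC16A3, STC1, BNIP3 and PDK1 are lower and DACT1, ZEB2 and MYC higher in sets 3 and 4 in all libraries, while DDIT4 is set apart by set 1.

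Genes with the largest rises included transcription factors of early neural and endodermal cells at low levels. SOX21, a SOX factor of neural progenitors, had the largest rise among called genes whose average log2 CPM was 1 or more, from 3.72 and 7.29 CPM in set 1 and 6.71 and 11.5 CPM in set 2 to 16.6 and 32.2 CPM in set 3 and 17.9 and 25.2 CPM in set 4. The pairs did not overlap, sO-L1 libraries were above ASO-Ctr libraries in each set, and the fold was 3.08 (95% interval 2.47 to 3.84, adjusted p = 0.0387 with 1 profile per set). Its antisense neighbour SOX21-AS1 rose 2.48-fold. The library kit marks strand, but the sources used here do not give the counting's strand setting, so reads of the 2 genes may not be separated.

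ZEB2, a repressor of E-cadherin, had 1.29 to 2.26 CPM in sets 1 and 2 and 4.39 to 5.89 CPM in sets 3 and 4. DACT1, a modulator of WNT signalling, had the smallest adjusted p of the rises (1.07e-06, and 0.0174 with 1 profile per set), with 34.5 to 41.1 CPM in sets 1 and 2 and 63.6 to 70.8 CPM in sets 3 and 4. The Notch target HES1, the neuroendocrine factor INSM1, TNRC18, the homeobox factor LHX6 and KLHL4 were also among the 12 largest rises of genes called in both fits, as were EGR1 and CXCR4. The first 5 rose by log2 differences of 1.16, 1.06, 0.97, 0.91 and 0.79.

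Among markers of definitive endoderm 4 of 7 tested genes rose and 0 fell, beside 4.25% of all genes called higher. With 1 profile per set 3 were called. Of the 7, 2 had negative differences that were not called, the lower at a log2 difference of -1.22. In ASO-L1 libraries 3 of the 7 were negative, a count given without the share of all genes. The list holds 16 genes, so many of its members were not tested. FOXA2, a pioneer factor of endoderm and floor plate, had 0.346 to 0.718 CPM in sets 1 and 2 and 1.67 to 2.58 CPM in sets 3 and 4 (4.55-fold, 95% interval 3.23 to 6.41). CER1, a secreted antagonist of NODAL and BMP, had 63.0 and 78.7 CPM in set 1, 90.2 and 102 CPM in set 2 and 129 to 154 CPM in sets 3 and 4. The chemokine receptor CXCR4 had 5.19 to 6.95 and 9.38 to 11.2 CPM, and COL4A1, a basement membrane collagen, was the fourth. The summed level of the endoderm list was 179.8 to 231 CPM and 269 to 299 CPM. SOX17, which defines endoderm, had 0 reads in the 8 libraries, and GATA4 reached at most 0.265 CPM. The part of such cells in the rise was not tested, and in bulk RNA more cells of a type and more RNA per cell cannot be told apart.

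Markers of other lineages had few tested genes, and their calls stand beside 9.6% of all genes called. Of 8 tested neuroectoderm markers 1 rose (NES), with SOX1 at most 0.0931 CPM and PAX6 at 1.14 to 2.06 CPM. Of 6 primitive streak and mesoderm markers MIXL1 rose and KDR and TBX6 fell, with T at most 0.131 CPM and EOMES at most 0.175 CPM. Of 6 trophectoderm markers KRT7 fell, at most 1.06 CPM in every library, and CDX2 had 0 reads. Of 6 amnion markers BAMBI rose. Of 10 fibroblast markers COL1A1 and COL1A2 fell, and DCN had 0 reads.

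Collagens of types I, VI and XI fell and 3 chains of the basement membrane collagen of type IV rose in sets 3 and 4. Of 28 tested collagens, laminins and other matrix genes 9 fell and 4 rose, beside 5.35% of all genes called lower and 4.25% higher. COL1A1 had 13.6 to 16 CPM in sets 1 and 2 and 8.90 to 9.79 CPM in sets 3 and 4 (log2 difference -0.64, SE 0.077, adjusted p = 0.0394 with 1 profile per set). COL1A2, COL11A1, COL6A1 and COL6A2 fell by -0.35, -0.62, -0.28 and -0.39, and the heparan sulphate proteoglycan AGRN and fibronectin (FN1) by -0.32 and -0.22. COL4A1, COL4A2 and COL4A6 rose by 0.25, 0.37 and 0.34, and the matrix glycoprotein SPARC by 0.23.

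IDO1, which breaks down tryptophan, had 21.4 and 24.1 CPM in set 1, 14.3 and 15.7 CPM in set 2 and 5.85 to 8.53 CPM in sets 3 and 4, a level 2.61-fold higher in sets 1 and 2 (95% interval 2.08 to 3.26). Of 26 tested interferon response genes BST2 fell and IFITM3 rose, a share of calls no higher than the 9.6% of all genes. Among genes also called with 1 profile per set, the other genes of the 12 largest falls were RP11-867G2.6, the membrane-bound factor CREB3L1, the junctophilin JPH4, the sodium pump subunit ATP1B2, SNAI3, the adhesion receptor BAI2, the zinc finger gene ZNF107, the orphan receptor GPR176 and the protein kinase C isoform PRKCB, at log2 differences from -1.17 to -0.83.

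Several enzymes of cholesterol synthesis rose slightly. Of 25 tested members 7 rose and 1 fell (median log2 difference 0.08), beside 4.25% of all genes called higher and 5.35% lower. The summed level of the list was 4968 to 5106 CPM in sets 1 and 2 and 5240 to 5373 CPM in sets 3 and 4. HMGCS1, which makes the precursor HMG-CoA, had 457 to 511 CPM and 587 to 612 CPM (1.23-fold, 95% interval 1.16 to 1.31, adjusted p = 0.0394 with 1 profile per set). Of 13 fatty acid synthesis genes 0 were called by edgeR (4 at an unadjusted p under 0.05), and of 21 endoplasmic reticulum chaperones 0 (2 at that p).

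The core factors of pluripotency were not called between the pairs over 8 libraries. POU5F1, the core factor OCT4, had 1085 to 1285 CPM in all 8 libraries (log2 difference -0.03, SE 0.045, adjusted p = 0.729), NANOG 122 to 147 CPM (0.12, SE 0.055, adjusted p = 0.187) and SOX2 402 to 468 CPM (0.11, SE 0.037, adjusted p = 0.0741). When a set was left out, NANOG differed by 0.24 (adjusted p = 3.03e-08) and SOX2 by 0.093 (adjusted p = 0.0184) without set 1, and SOX2 by 0.14 (adjusted p = 0.00553) and POU5F1 by -0.11 (adjusted p = 0.022) without set 2. L1TD1, an RNA-binding protein derived from a LINE1 sequence, differed by -0.01 (SE 0.032). Of 22 core pluripotency genes 5 fell and 1 rose: ZFP42, DPPA2, FOXD3, PRDM14 and TERF1 against LIN28B. Among all genes 5.35% were called lower and 4.25% higher. PRDM14 overlapped between the pairs and lost its call in 8 of 12 fits without a library or set, and with the GC correction PRDM14 and LIN28B were not called, which left 4 lower and 0 higher.

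Naive markers moved in both directions. Of 21 tested naive markers 3 rose and 3 fell, and of 23 primed markers 5 rose and 1 fell. Both counts stand beside 4.25% of all genes called higher and 5.35% lower. The naive marker KLF17 had at most 0.483 CPM, while DPPA5 lay at 4.78 to 12.3 CPM, SUSD2 at 3.07 to 6.17 CPM, DPPA3 at 26.7 to 43 CPM and KLF4 at 15.9 to 25.6 CPM. The last 2 were not called (adjusted p = 0.845 and 0.0685). Without set 1 KLF4 differed by 0.47 (adjusted p = 2.71e-09) and DPPA3 by 0.18 (adjusted p = 0.0117), and without set 2 DPPA3 differed by -0.25 (adjusted p = 0.00109). SUSD2 and DPPA5 fell and TFAP2C, a trophoblast and naive factor, rose by 0.21. Among primed markers VIM (111 ± 8.3 to 145 ± 11 CPM), SOX11 (80.5 ± 4.9 to 104 ± 4.5 CPM), CDH2, SFRP2 and SALL1 rose, while DNMT3B, the de novo DNA methyltransferase, fell from 2613 ± 53 to 2326 ± 47 CPM. ZIC2 was not called (6.06 to 8.32 CPM). Of 3 tested genes of the 8-cell embryo 0 were called by edgeR (1 at an unadjusted p under 0.05).

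Counts of other groups stand beside 9.6% of all genes called between the pairs, 4.25% higher and 5.35% lower. Of these groups, ribosomal protein, respiratory chain and imprinted genes had the lowest shares of calls. Of 37 proliferation genes 6 rose and 0 fell, of 76 nuclear subunits of the respiratory chain 3 rose, and of 13 mitochondrially encoded genes 3 rose. Mitochondrial reads made up 5.63 to 6.48% of each library. Of 78 ribosomal protein genes RPL17 alone was called over 8 libraries, and of 33 replication-dependent histone genes 3 fell. Without set 1, 27 ribosomal protein genes, 26 respiratory chain subunits and 14 proliferation genes were called higher. Heat shock proteins were split, with HSP90AA1, HSPA8, HSPE1 and DNAJA1 higher and HSPB1, HSPB8 and HSPA2 lower. Of 18 metallothioneins and NRF2 targets 2 rose and 2 fell, and of 21 imprinted genes 0 were called by edgeR (7 at an unadjusted p under 0.05). Smad targets included 3 of 17 genes of NODAL and TGF beta signalling higher and 3 lower, and 3 of 11 BMP targets higher, ID3 among them with 6.57 to 7.24 CPM in sets 1 and 2 and 10.7 to 12.8 CPM in sets 3 and 4. Of 11 WNT targets CCND1 and WNT3 rose.

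**Figure D4:**
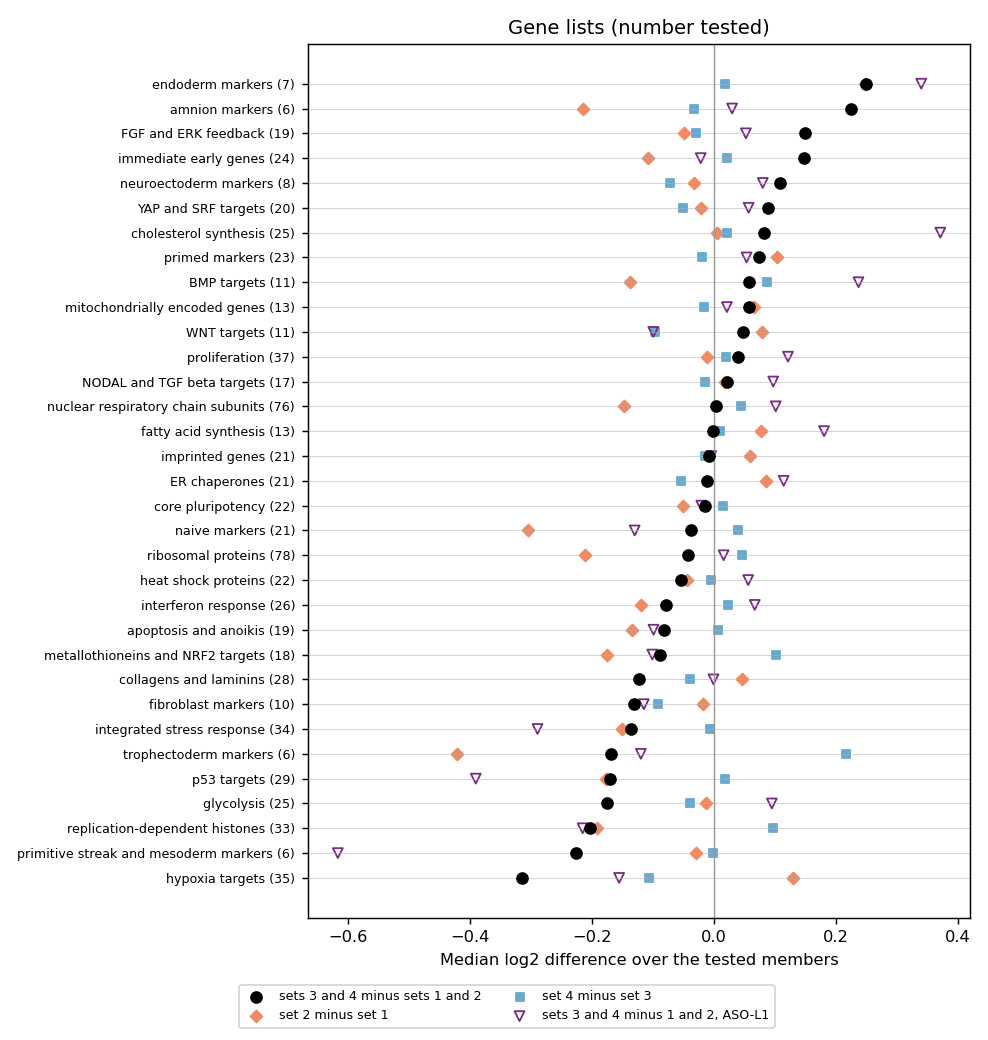
Median log2 difference over the tested members of each gene list with at least 5 tested genes: sets 3 and 4 minus sets 1 and 2 in control libraries (black), set 2 minus set 1 (orange), set 4 minus set 3 (blue) and sets 3 and 4 minus sets 1 and 2 in ASO-L1 libraries (open purple); the first 3 use the same control libraries. Hypoxia targets have the lowest control median (-0.32), while set 2 against set 1 gives 0.13.

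Within the pairs, sets 1 and 2 differed far more than sets 3 and 4. Set 2 against set 1 gave 2884 of 17592 genes (16.4%), 1479 higher and 1405 lower in set 2, and set 4 against set 3 gave 22 (0.125%), 10 higher and 12 lower. These contrasts use the libraries of the main comparison, so the values are given side by side only. Ribosomal protein genes were lower in set 2 in 72 of 78 cases (median log2 difference -0.21) and nuclear respiratory chain subunits in 34 of 76 (median -0.15). Of 21 naive markers 9 were lower in set 2 and 0 higher, and of 23 primed markers 8 were higher and 0 lower. Stress and p53 lists had 18 of 34 and 11 of 29 members lower in set 2. Hypoxia targets had 9 higher and 3 lower in set 2 (median 0.13). Immediate early genes had 3 higher and 9 lower (median -0.11), and genes of FGF and ERK feedback 5 higher and 5 lower (median -0.05).

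NLRP7, a maternal-effect gene of the naive list, showed how set 1 stood apart. It had 63.9 and 66.0 CPM in set 1, 29.8 and 29.2 CPM in set 2 and 23.8 to 25.1 CPM in sets 3 and 4. The log2 difference of set 2 from set 1 was -1.14 (adjusted p = 5.8e-24), and between the pairs it was called over 8 libraries (adjusted p = 0.0193) but not with 1 profile per set (0.196).

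The 22 genes called between sets 3 and 4 included SLC16A3, EGLN1, SLC2A1 and PFKFB3, all lower in set 4, and the metallothioneins MT1E and MT1H, higher in set 4. MT1E had 49.6 and 46.7 CPM in set 3 and 58.3 and 60 CPM in set 4. UTF1, a chromatin protein of pluripotent cells, had 20.9 and 20.2 CPM in set 3 and 12.8 and 14.4 CPM in set 4.

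Whether ASO-Ctr and sO-L1 libraries differ in the set difference was tested as an interaction. The interaction of oligo and pair was called for 0 of 17592 genes by edgeR, with 227 at an unadjusted p under 0.05. That fit takes no account of the pairing by number. With the replicate number as a block, added after the data were seen, 3 genes were called and 634 had an unadjusted p under 0.05. The 3 were AC079949.1, AL161626.1 and MT-ATP8, named after their values were seen, whose set difference was larger in sO-L1 libraries by log2 values of 2.19, 1.70 and 0.62. Without set 2 and without the block it was called for 17 genes.

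The ASO-L1 libraries, which took no part in the choice or in the fit of the 8 control libraries, share the replicate numbers and so possibly the culture or day. In them sets 3 and 4 differed from sets 1 and 2 in 72 of 18148 genes (0.397%), 33 higher and 39 lower, with 2551 at an unadjusted p under 0.05. This fit takes the spread from all 12 libraries, and fitted alone the 4 ASO-L1 libraries gave 0 genes. Of the 1642 genes called in control libraries 1354 had the same sign (82.5%), against 61.4% of all genes, and of the 80 genes called with 1 profile per set 76 did. Across the 1642 genes the log2 differences correlated at r = 0.747, a description across genes that share libraries. The difference from the control oligos was called for 0 genes by edgeR, with 1256 at an unadjusted p under 0.05, and for 0 with the replicate number as a block, with 1946.

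Genes described above that were called in ASO-L1 libraries too included SOX21 (log2 difference 1.47, adjusted p = 0.0131), DACT1 (0.61, 0.0111), CER1 (0.83, 0.0222), CXCR4 (1.14, 0.0105), ID3 (0.97, 0.0207), IDO1 (-1.42, 0.0222), TNRC18 (0.60, 0.0478), HMGCS1 (0.64, 0.0468), ZNF107 (-1.58, 0.00819) and GPR176 (-0.80, 0.0492). RP11-867G2.6 (-1.43, 0.0111), MIXL1 (0.66, 0.0131), TNFRSF10B (-0.63, 0.0276) and KDR (-1.56, 0.0482) were called there as well. CER1, for example, had 137 and 171 CPM in ASO-L1 sets 1 and 2 and 296 and 248 CPM in sets 3 and 4. Others were not called there, such as STC1 (-0.27, 0.396) and VIM (-0.17, 0.552), the latter with the opposite sign. Stress and p53 lists had 31 of 34 and 25 of 29 members below 0 in ASO-L1 (medians -0.29 and -0.39). Immediate early genes had 12 of 24 and genes of FGF and ERK feedback 8 of 19 below 0 (medians -0.02 and 0.05), with 0 called by edgeR in either list.

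Hypoxia targets and glycolytic genes gave no calls in ASO-L1 libraries. Of 35 hypoxia targets 22 were negative in ASO-L1 libraries (median -0.16, 0 called), and of 25 glycolytic genes 7 were negative (median 0.10, 0 called). The share of all genes that were negative in these libraries is not given. The summed level of the hypoxia targets was 874 and 885 CPM in ASO-L1 sets 1 and 2 and 794 and 775 CPM in sets 3 and 4, so the pairs did not overlap. That of the glycolytic genes was 11299 and 12693 CPM, then 12468 and 12690 CPM, and overlapped. Each pair holds only 2 ASO-L1 libraries, so separation or overlap of the pairs says little there. SLC16A3 had 3.48 and 7.28 CPM in ASO-L1 sets 1 and 2 and 2.72 and 3.07 CPM in sets 3 and 4. BNIP3 had 23.8 and 41.1 CPM, then 28.1 and 30.2 CPM, and PDK1 39.1 and 51.7 CPM, then 40 and 44.8 CPM, so that for both genes the pairs overlapped. The difference between ASO-L1 and control libraries in the set effect had an unadjusted p under 0.05 for 19 of the glycolytic genes and 9 of the hypoxia targets, and for 20 and 14 of them with the replicate number as a block. In both fits 0 were called after adjustment.

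**Figure D5:**
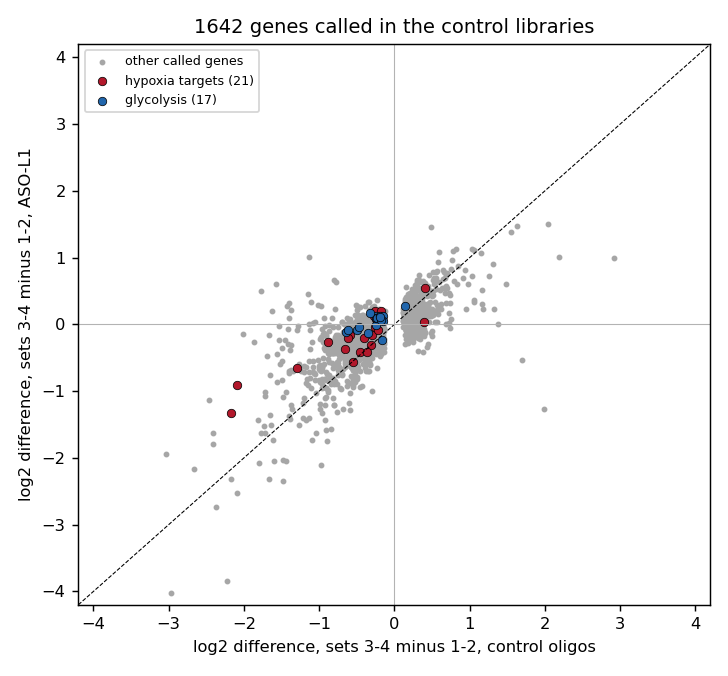
Log2 difference of sets 3 and 4 from sets 1 and 2 in control libraries (x axis) and in ASO-L1 libraries (y axis) for the 1642 genes called in control libraries, with called hypoxia targets in red and called glycolytic genes in blue; the dashed line marks equal values. Of the 1642 genes 1354 have the same sign on both axes, while of 17 called glycolytic genes 10 lie above 0 and 7 below 0 on the y axis.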

How the data were processed

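The values used are raw counts of reads in genes, deposited after duplicate reads had been taken out (per the labels). The submitters' processing notes name Trim Galore 0.4.0, TopHat2 2.0.13, featureCounts of Subread 1.5.0 and hg19; the sources used here do not give the annotation or strand setting. Loss of duplicates trims highly expressed genes most. The deposited batch-corrected log2 table and the table comparing oligos were not used.

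In R 4.3.3, edgeR 4.0.16 (TMM, filterByExpr with minimum count 10) was fitted to 8 control libraries with oligo and pair of sets. The fit was run on simulated counts drawn separately for each library, which cannot show the effect of same-numbered libraries moving together. Alternatives were limma 3.58.1, DESeq2 1.42.0, other filters, single libraries left out, a GC correction and a fixed replicate block for the interactions, the last 2 chosen after the data were seen. GC content came from GENCODE transcripts, matched by symbol. Same-numbered libraries correlated at 0.604 to 0.723, a measure that holds the difference between the pairs, and at 0.276 in limma with oligo and pair in the design. They were therefore taken as linked, and the fit with the replicate number as a random effect is given in the closing section.

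Genes named were the 12 largest changes each way among genes called in both fits, with average log2 CPM of at least 1 and no overlap, up to 3 called members of each of 34 lists, and 15 set genes. Other named members of lists, genes called within the pairs and those in figures were chosen after their values were seen. The lists, which hold 868 entries, and the members were chosen with earlier results of these data known. The table held 26 gene symbols turned into dates, of which 2 were called and none is named. Some genes that this rule selects are not reported here.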

Additional observations from a re-analysis of the deposited data

Results flagged for a closer look

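In groups of 4 libraries, the gap between the outermost library and its neighbour was compared with the group's range in 222 cases, of which 12 passed Dixon's critical value; chance gives about 1 in 20. In sets 1 and 2, the ASO-Ctr library of set 1 was outermost for PDK1 (87.3 CPM, the others 99.4 to 101), VEGFA (43.6 CPM, the others 39.7 to 40.2) and RPL17 (13.6 CPM, the others 8.76 to 9.34), and the sO-L1 library of set 1 for TFAP2C (55.8 CPM, the others 48.1 to 49.1). In sets 3 and 4, the sO-L1 library of set 4 was outermost for EGR1 (8.15 CPM, the others 6.13 to 6.32), HSP90AA1 (3293 CPM, the others 3377 to 3391), DDIT4 (21.6 CPM, the others 19.4 to 19.8), GCLC (99.8 CPM, the others 90.6 to 92.0) and ZIC2 (6.85 CPM, the others 8.09 to 8.32). The ASO-Ctr library of set 3 was outermost for VEGFA (36.1 CPM, the others 31.4 to 32.1) and NLRP7 (23.8 CPM, the others 24.9 to 25.1), and that of set 4 for MT-ND2 (3246 CPM, the others 3510 to 3564).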

How the results depend on the processing

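With the replicate block (replicate number as a random effect in limma), 847 genes were called in place of 1642, and 98 of 108 named genes stayed on their side of the threshold; no hypoxia or glycolysis count moved by over 1.5 times. With 1 profile per replicate number 80 genes were called, with 5 hypoxia targets and 1 glycolytic gene lower. ASO-Ctr libraries alone gave 45 (4 and 2) and sO-L1 libraries alone 40 (3 and 1), from fewer libraries. With all 12 libraries 7 glycolytic genes were lower. Leaving out libraries or sets gave 104 to 4352 genes, 5 to 23 hypoxia targets and 2 to 20 glycolytic genes. DESeq2 gave 1662 genes, DESeq2 size factors 1639, no oligo block 1521 and no filter on low counts 2137. Without the filter, 668 genes were called with 1 profile per set, 644 in ASO-L1 libraries, 54 for their difference from the controls and 3 for the oligo interaction, which gave 0 to 17 with 1 set left out and 3 with the replicate number as a fixed block. ASO-L1 libraries alone gave 0. The cause was not tested.

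Signs turned in 5 genes that were not called over 8 libraries, of which DPPA3 was called higher without set 1 and lower without set 2. CA9 changed from -0.01 to 0.011 with DESeq2, 0.27 with all 12 libraries, 0.30 in ASO-Ctr libraries alone and 0.04006 with the GC correction, and ranged from -0.40 to 0.29 without 1 library or set. POU5F1 was 0.01735 with all 12 libraries and 0.01958 in ASO-Ctr libraries alone, and DPPA3 0.02515 with all 12. Without 1 library or set POU5F1 ranged from -0.11 to 0.0522, DPPA3 from -0.25 to 0.18, L1TD1 from -0.0193 to 0.0111 and INSIG1 from -0.0069 to 0.16. Genes near the 3-read limit, such as CA9 and NDUFA4L2, are limited by depth.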
